A study of Homo sapiens with 8 samples.

Results

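Ionizing radiation was followed in cells whose ATR kinase was inhibited, by comparing AZD6738+IR libraries with AZD6738 libraries, 2 of each. Every gene symbol in the deposited expression table was a member of the comparison, and among several entries of a symbol that with the highest mean was taken. This gave 9463 named genes among 14645 loci, of which 8666 had a mean of at least 1 FPKM over the 8 libraries of the series and were tested, while 797 lay below that level. The cells were MCF10A, an immortalised human line of breast epithelium that does not form tumours, so the libraries describe 1 line grown in medium with serum, epidermal growth factor, hydrocortisone, cholera toxin and insulin. AZD6738+IR cells received the ATR inhibitor AZD6738 at 250 nM and 20 Gy of ionizing radiation. AZD6738 cells received 250 nM AZD6738 without radiation, IR cells received the solvent DMSO and 20 Gy, and DMSO cells received the solvent without radiation. Drug or solvent preceded irradiation by 2 hours and stayed on the cells for 3 days, so AZD6738+IR and AZD6738 cells share the inhibitor and differ in radiation. The title of the series puts the question as how ATR inhibition alters the interferon response of irradiated cells and which part sensors of nucleic acids in the cytosol have in it.

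ATR is a kinase that is recruited to single-stranded DNA at stalled replication forks and resected breaks, and through the kinase CHK1 it holds cells back from mitosis while damage remains. Nucleic acids that reach the cytosol are read by sensors such as cGAS, which signals through STING, and the RNA sensor MDA5, and these induce type I and type III interferons. Secreted interferons act through JAK and STAT proteins on a large set of interferon-stimulated genes, many of which block viral replication.

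Values are FPKM, fragments normalised for transcript length and sequencing depth, and a difference is given on the scale of log2(FPKM + 1), where the change of low genes is understated. A gene was called where limma gave a Benjamini-Hochberg adjusted p under 0.05 over all 12809 loci tested, with the 4 groups sharing 1 estimate of the spread. Nothing in the labels says whether libraries A and B of a group are separate cultures, so p-values cover no more than the spread among these libraries, possibly a technical one. The depth is unknown, so no counting error can be given. The FPKM values summed to between 882838.5 and 969381.1 in AZD6738+IR libraries and between 864305.7 and 875655.1 in AZD6738 libraries. Of this sum the 4 most abundant loci took 56.78% in AZD6738+IR A, 61.42% in AZD6738+IR B, and 53.27% to 54.12% in AZD6738 libraries, so AZD6738+IR B stood somewhat apart from A. On the first principal component, with 69.3% of the variance, the AZD6738+IR libraries lay at 61.62 and 59.67 and the AZD6738 libraries at -36.0 and -36.91. Of 10 markers of mammary epithelium 8 were matched by symbol, with summed levels of 4539 and 4247 FPKM in AZD6738+IR libraries and of 2211 and 2229 FPKM in AZD6738 libraries. The keratin KRT17 made up most of this sum. Of the 8 markers 4 were higher and 4 lower, and those that fell were TP63 (-1.08), EPCAM (-0.49), ITGA6 (-0.41) and EGFR (-0.36). Of the other markers only the fibroblast gene DCN was matched, at 4.55 and 4.31 FPKM in AZD6738+IR libraries, against 1.65 and 1.95 FPKM in AZD6738 libraries, while KRT5, KRT18, the other fibroblast markers and all 10 blood and endothelial markers had no matching symbol and were not analysed here.

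Most genes differed between irradiated and unirradiated cells in the presence of the inhibitor. Of the 8666 named genes tested 6415, or 74%, were called, with 2377 (27.4%) higher and 4038 (46.6%) lower in AZD6738+IR than in AZD6738 libraries. Under 3 other scalings of the libraries 2741 to 2788 were higher and 3542 to 3602 lower, so the excess of falls became smaller. A difference of at least 1 on the log2 scale was reached by 581 genes (6.7%) that were higher and 696 (8.03%) that were lower. The median difference of all named genes was -0.15, with the 5th percentile at -1.19 and the 95th at 1.24, and the median standard error was 0.061. Rises reached further than falls: 106 genes with at least 5 FPKM rose more than 10-fold, and 62 fell more than 5-fold against 168 that rose more than 5-fold. Rises from 0 and falls to 0 have no fold and are not in these counts. At 0 in both AZD6738 libraries were 7 tested genes, IFNL1 among them. Counts for gene groups below are to be read against these shares, since a gene taken from the table at large was called in 74% of cases. The largest rises were those of IFI6, IFIT1, ISG15, IFIT3, OASL, IFI27, MX1, IFNL1, BST2 and RSAD2, all of them interferon-stimulated genes or, for IFNL1, an interferon. Among the falls ASNS, EIF4EBP1, RPL22L1, HIST1H1B, HIST1H3G, TRIB3, PSAT1, HIST1H3B, HIST1H3I and ODC1 were the largest. These rises and falls were ranked only among called genes whose groups do not overlap. For them the lack of overlap was therefore a condition of the choice. Groups without overlap were also common at large, in 7529 of the 8666 named genes tested, or 86.9%. Statements below that the groups of a gene do not overlap are to be read against this share, and alone they set no gene apart.

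**Figure D1:**
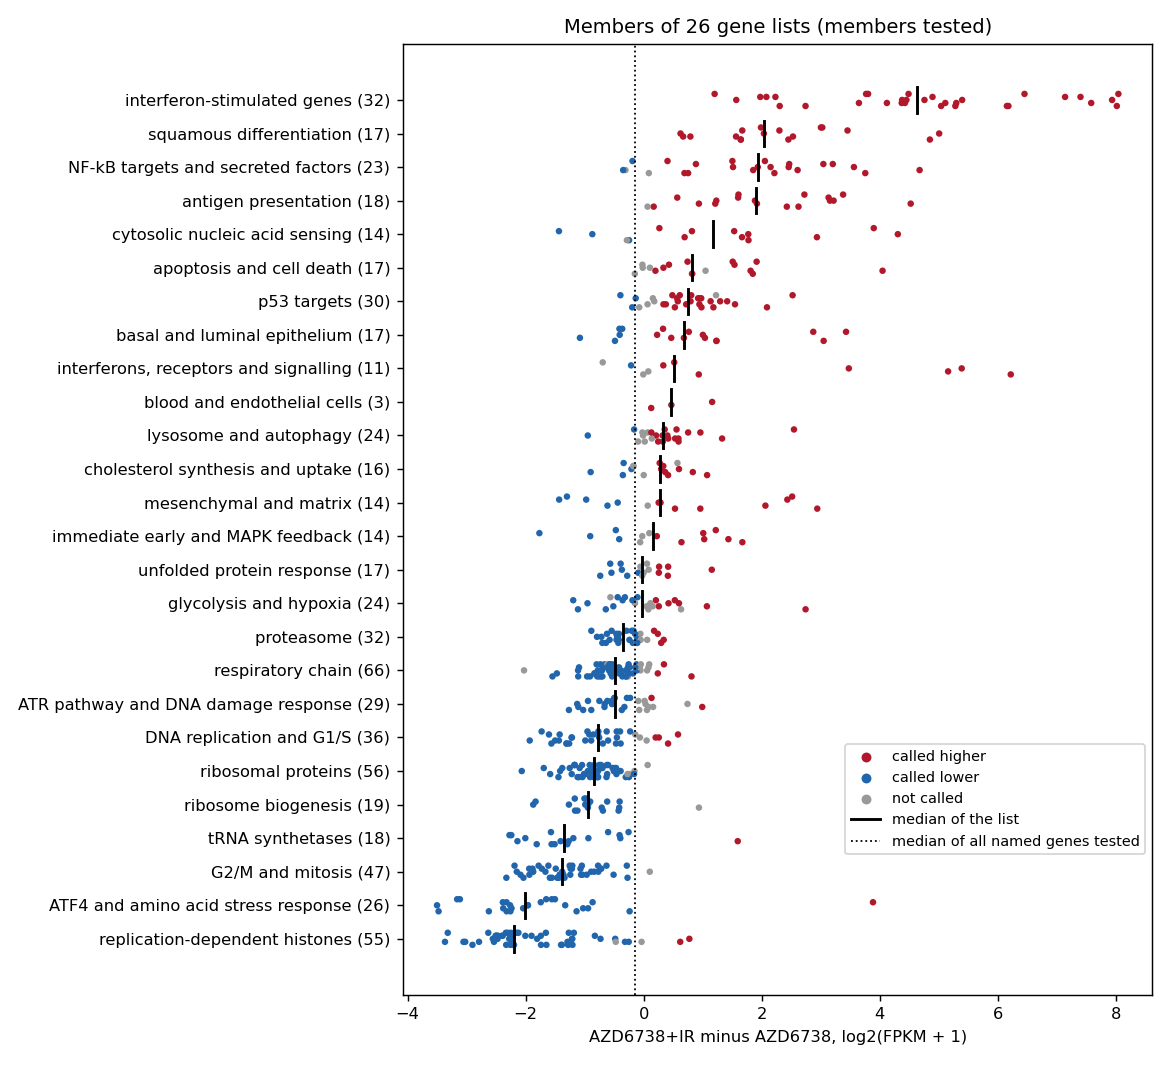
Differences between AZD6738+IR and AZD6738 libraries for the tested members of 26 gene lists. Each point is a gene, the horizontal axis is AZD6738+IR minus AZD6738 in log2(FPKM + 1), red and blue points were called higher and lower, grey points were not called, black bars are list medians and the dotted line is the median of all named genes at -0.15; interferon-stimulated genes have the highest median at 4.62 and replication-dependent histones the lowest at -2.20.

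The interferon genes IFNB1, IFNL1, IFNL2 and IFNL3 were transcribed in AZD6738+IR libraries and were at or near 0 in the other groups. IFNL1 (chr19:39296407-39298673 in GRCh38.p14), a type III interferon, had 77.6 and 69.8 FPKM in AZD6738+IR libraries, against 0 and 0 FPKM in AZD6738 libraries. IFNB1 (chr9:21077104-21077942), the type I interferon that most cells can make, had 9.799 and 10.7 FPKM in AZD6738+IR libraries, against 0.0204 and 0 FPKM in AZD6738 libraries. The groups do not overlap for either gene, and no fold is given because the AZD6738 level is 0 or rests on 1 library. IFNL2, a second type III interferon, had 36.3 and 33.2 FPKM in AZD6738+IR libraries, against 0 and 0 FPKM in AZD6738 libraries. IFNL3 had 40.4 and 41.4 FPKM in AZD6738+IR libraries, against 0 and 0 FPKM in AZD6738 libraries. Both are listed at 0 in AZD6738 libraries and present in both AZD6738+IR libraries, but they are near-identical copies and how reads were divided between them is not given, so their single levels are uncertain. The differences were 6.22 ± 0.076 for IFNL1, 5.39 ± 0.043 for IFNL3, 5.16 ± 0.073 for IFNL2 and 3.48 ± 0.062 for IFNB1 (standard errors), with limma adjusted p from 1.56e-07 to 7.24e-07. Radiation without the inhibitor left IFNL1 low, at 0.116 and 0.253 FPKM in IR libraries, against 0 and 0 FPKM in DMSO libraries. Likewise IFNB1 had 0.0196 and 0.0776 FPKM in IR libraries, against 0.0209 and 0 FPKM in DMSO libraries. The interaction, which is the radiation difference with the inhibitor minus the radiation difference without it, was 5.98 ± 0.11 for IFNL1 (limma adjusted p = 5.75e-06) and 3.42 ± 0.088 for IFNB1 (adjusted p = 1.31e-05). In RNA from a whole culture, more cells that transcribe a gene and more RNA of that gene per cell cannot be told apart.

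Receptors and signalling genes of the interferon pathway had smaller differences. Of 11 tested members of the list of interferons, receptors and signalling 7 were higher and 1 was lower, with 4, the interferons, past a difference of 1, and a median of 0.52. JAK1, the kinase shared by type I and type III receptors, had 40.2 and 38.9 FPKM in AZD6738+IR libraries, against 27.9 and 26.8 FPKM in AZD6738 libraries, a difference of 0.52 (adjusted p = 6.59e-05). The feedback inhibitor SOCS3 had 4.97 and 4.604 FPKM in AZD6738+IR libraries, against 2.04 and 2.02 FPKM in AZD6738 libraries, with a difference of 0.93 (adjusted p = 1.79e-05). The groups do not overlap for either gene. IFNAR1 and IFNAR2, the subunits of the type I receptor, were not called, with differences of -0.0081 (adjusted p = 0.897) and 0.077 (adjusted p = 0.257), and IL10RB, a subunit of the type III receptor, was the member that fell, by 0.22.

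Interferon-stimulated genes rose as a whole list. All 32 tested members were called higher, all by at least 1 on the log2 scale, with a median difference of 4.62 against -0.15 for all named genes, and a range from 1.20 to 8.04, while 21 listed genes had no matching symbol. ISG15 (chr1:1013497-1014540), a ubiquitin-like protein that is conjugated to other proteins, had 1604 and 1696 FPKM in AZD6738+IR libraries, against 5.83 and 5.63 FPKM in AZD6738 libraries. IFIT1, which binds foreign RNA with an unmethylated cap, had 565 and 574 FPKM in AZD6738+IR libraries, against 1.198 and 1.205 FPKM in AZD6738 libraries. IFIT3, its partner, had 644 and 667 FPKM in AZD6738+IR libraries, against 2.42 and 2.42 FPKM in AZD6738 libraries. These are rises of 288-fold for ISG15, 474-fold for IFIT1 and 271-fold for IFIT3, and in each case both AZD6738+IR libraries lie far above both AZD6738 libraries, with limma adjusted p from 2.17e-07 to 9.73e-07. IFI6, a mitochondrial and endoplasmic reticulum protein, had 1691 and 1526 FPKM in AZD6738+IR libraries and 4.798 and 5.39 FPKM in AZD6738 libraries, the largest rise of a named gene on the log2 scale. IFI27 had 331 and 368 FPKM in AZD6738+IR libraries and 1.56 and 1.397 FPKM in AZD6738 libraries. OASL, a relative of the oligoadenylate synthetases, had 337 and 321 FPKM in AZD6738+IR libraries and 0.876 and 1.03 FPKM in AZD6738 libraries. The replicates are close beside the distance between the groups in all 3, although IFI27 has several entries in the table and its level is uncertain. MX1, a GTPase that blocks influenza and other viruses, had 119.8 and 122 FPKM in AZD6738+IR libraries, against 0.354 and 0.4301 FPKM in AZD6738 libraries, a rise of 309-fold. RSAD2, also called viperin, had 77.8 and 83.5 FPKM in AZD6738+IR libraries, against 0.1302 and 0.159 FPKM in AZD6738 libraries. BST2, which tethers viruses to the cell surface, had 140.2 and 159 FPKM in AZD6738+IR libraries, against 1.08 and 1.07 FPKM in AZD6738 libraries. All 3 were near 1 FPKM or below it in AZD6738 libraries and far above it in both AZD6738+IR libraries. CXCL10, a chemokine for T cells, had 55.98 and 54.4 FPKM in AZD6738+IR libraries, against 0.282 and 0.388 FPKM in AZD6738 libraries, with a difference of 5.40 ± 0.068 (adjusted p = 3.31e-07).

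**Figure D2:**
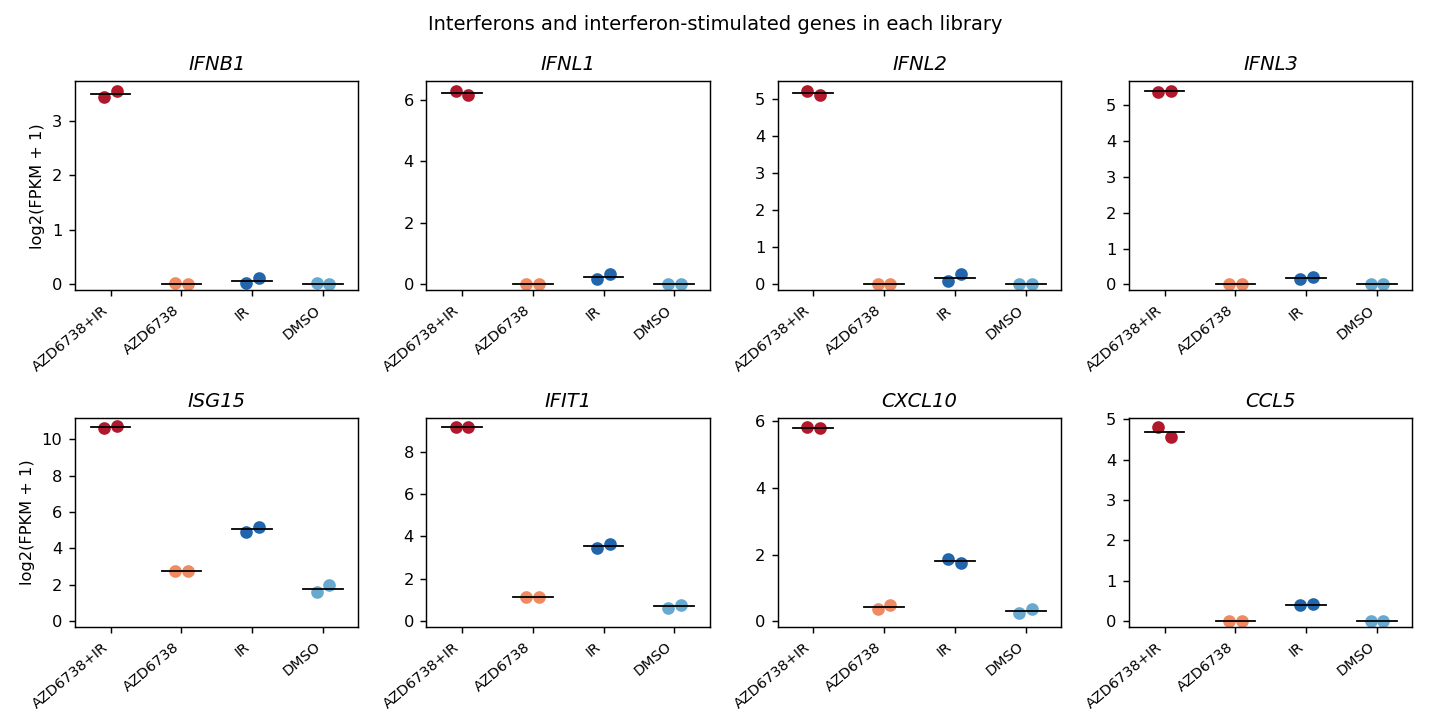
Levels of 4 interferon genes and 4 interferon-stimulated genes in each library, as log2(FPKM + 1) on axes that differ between panels. Points are libraries A and B, black bars are group means, and groups run AZD6738+IR, AZD6738, IR and DMSO from left to right; the AZD6738+IR libraries lie above all others in all 8 panels, with IR libraries next for ISG15, IFIT1, CXCL10 and CCL5.

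Radiation raised these genes more with the inhibitor than without it. The interaction was called higher for all 32 interferon-stimulated genes, against 14.3% of named genes that were called higher and 23.6% that were called lower in it, and the median difference between IR and DMSO libraries over the same 32 genes was 1.01. Interaction counts of the lists below are to be read against the same 14.3% and 23.6%. ISG15 had 28.6 and 35.8 FPKM in IR libraries and 1.99 and 2.98 FPKM in DMSO libraries, and its interaction was 4.68 ± 0.22 (limma adjusted p = 0.000109). For IFIT1 the IR libraries had 9.92 and 11.3 FPKM and the DMSO libraries 0.542 and 0.709 FPKM, with an interaction of 5.18 ± 0.10 (adjusted p = 7.19e-06). The 6 named genes with the highest interaction among those with at least 5 FPKM in some group were IFNL1, IFIT3, RSAD2, OASL, IFNL3 and IFIT1, at 5.98, 5.34, 5.32, 5.27, 5.21 and 5.18.

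Promoters of these genes are shown for the letters of the interferon-stimulated response element, the sequence bound by interferon-activated STAT and IRF factors. The letters GAAANNGAAA, where N is any base, were searched on both strands of the 250 bases before the first start listed for each gene in the RefSeq promoter table (build GRCh38.p14). They occurred in 839 of 27305 promoters of that table (3.07%) and in 17 of the 27 interferon-stimulated genes of the list that had a promoter there, of 32 tested (63%). The windows below are read along the strand of the gene, with up to 30 bases on either side, and capitals mark every match, in reverse complement where it lies on the opposite strand. They belong to ISG15 (chr1:1013354-1013429, plus strand), IFIT1 (chr10:89392477-89392559, plus), IFIT3 (chr10:89327811-89327914, plus), IFI6 (chr1:27672246-27672337, minus), IFI27 (chr14:94110598-94110680, plus), BST2 (chr19:17405715-17405790, minus), CXCL10 (chr4:76023679-76023747, minus), CD274 (chr9:5450304-5450379, plus), IFNL1 (chr19:39296163-39296238, plus) and IFNL2 (chr19:39268190-39268259, plus).
ISG15: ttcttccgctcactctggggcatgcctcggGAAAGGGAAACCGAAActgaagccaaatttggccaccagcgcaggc
IFIT1: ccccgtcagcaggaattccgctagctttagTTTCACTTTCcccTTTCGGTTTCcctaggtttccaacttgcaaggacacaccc
IFIT3: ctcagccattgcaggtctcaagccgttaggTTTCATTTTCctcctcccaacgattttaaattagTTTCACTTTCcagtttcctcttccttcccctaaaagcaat
IFI6: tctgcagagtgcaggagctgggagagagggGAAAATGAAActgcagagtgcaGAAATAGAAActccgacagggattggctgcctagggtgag
IFI27: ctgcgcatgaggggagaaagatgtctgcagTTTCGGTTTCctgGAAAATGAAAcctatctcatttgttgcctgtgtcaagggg
BST2: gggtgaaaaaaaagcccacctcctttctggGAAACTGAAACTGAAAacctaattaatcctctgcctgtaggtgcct
CXCL10: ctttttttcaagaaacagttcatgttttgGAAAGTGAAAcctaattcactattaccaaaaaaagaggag
CD274: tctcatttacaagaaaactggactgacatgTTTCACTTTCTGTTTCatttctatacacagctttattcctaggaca
IFNL1: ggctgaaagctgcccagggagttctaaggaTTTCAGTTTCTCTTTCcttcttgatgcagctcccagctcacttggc
IFNL2: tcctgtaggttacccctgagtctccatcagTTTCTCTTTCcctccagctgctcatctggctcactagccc
ISG15, BST2, CD274 and IFNL1 hold 2 overlapping matches, and IFIT1, IFIT3, IFI6 and IFI27 hold 2 separate ones in the window. The IFNL3 window of 70 bases has the same letters as that of IFNL2. A match is a run of letters and not a shown binding site.

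Sensors of nucleic acids and their adaptors rose more often than they fell. Of 14 tested members of the list 10 were higher and 3 lower, with a median of 1.17, while 10 listed genes had no matching symbol. IFIH1, the RNA sensor MDA5, had 111 and 113 FPKM in AZD6738+IR libraries, against 4.68 and 4.73 FPKM in AZD6738 libraries, a rise of 23.8-fold. SAMHD1, which breaks down deoxynucleotides, had 69.2 and 68.5 FPKM in AZD6738+IR libraries, against 3.71 and 3.66 FPKM in AZD6738 libraries, a rise of 18.7-fold. Neither gene has overlapping groups. TLR3, the endosomal receptor for double-stranded RNA, had 36.5 and 36.3 FPKM in AZD6738+IR libraries and 3.73 and 4.05 FPKM in AZD6738 libraries. ADAR, which edits double-stranded RNA, had 101 and 92.5 FPKM in AZD6738+IR libraries and 27.6 and 27.5 FPKM in AZD6738 libraries. For these too the AZD6738+IR libraries are the higher ones, and limma adjusted p ran from 2.84e-07 to 2.29e-06 over the 4 genes. TMEM173, the adaptor STING, had 38.7 and 35.5 FPKM in AZD6738+IR libraries, against 10.1 and 10.2 FPKM in AZD6738 libraries, with a difference of 1.77 ± 0.047 (adjusted p = 2.17e-06). Its interaction was 1.19 ± 0.067 (adjusted p = 0.00021). The DNA sensor cGAS, listed as MB21D1, went the other way, with 7.39 and 8.02 FPKM in AZD6738+IR libraries, against 9.53 and 9.14 FPKM in AZD6738 libraries. Its difference of -0.25 ± 0.055 was called (adjusted p = 0.00728), but the call was lost under 3 other scalings of the libraries, with differences of -0.16, -0.12 and -0.16. RNASEH2A and RNASEH2B, parts of the nuclease that cuts ribonucleotides out of DNA, were the other members that fell, by 0.87 and 1.44 on the log2 scale. RNASEH2B had 4.82 and 4.93 FPKM in AZD6738+IR libraries, against 14.8 and 15.03 FPKM in AZD6738 libraries. The interaction was called higher for 10 of the 14 genes and lower for RNASEH2B alone, whose difference between IR and DMSO libraries was -1.17. These 10 are not the same as the 10 that rose. They include RNASEH2A, which fell less with the inhibitor (-0.87) than without it (-1.16), with an interaction of 0.29 (limma adjusted p = 0.0377). IRF3, which rose, is not among them.

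Genes of antigen presentation rose in 17 of 18 tested cases, 14 of them by at least 1, and none was called lower, with a median of 1.90. CD274, the immune checkpoint ligand PD-L1, had 10.8 and 10.1 FPKM in AZD6738+IR libraries, against 0.296 and 0.276 FPKM in AZD6738 libraries. HLA-F, a non-classical class I gene, had 32.7 and 24.7 FPKM in AZD6738+IR libraries, against 1.89 and 1.78 FPKM in AZD6738 libraries. AZD6738+IR libraries lie above AZD6738 libraries for both, with differences of 3.16 for CD274 and 3.38 for HLA-F. The classical class I gene HLA-B had 65.4 and 47.2 FPKM in AZD6738+IR libraries and 1.68 and 1.26 FPKM in AZD6738 libraries. HLA-C had 156 and 194 FPKM in AZD6738+IR libraries and 17.8 and 17.8 FPKM in AZD6738 libraries. The groups are again apart, but HLA-B has 3 entries and HLA-C 5 entries in the table, and class I genes are near-identical, so the levels of single genes are uncertain. Over the 4 genes limma adjusted p was at most 9.5e-06. For CD274 the IR libraries had 0.648 and 0.62 FPKM and the DMSO libraries 0.173 and 0.231 FPKM, and the interaction was 2.71 ± 0.075 (adjusted p = 1.58e-05). The interaction was called higher for 13 of the 18 genes and lower for 1. The lower one was TAPBP, which is listed at 0 in both DMSO libraries, so its value rests on that group. HLA-E was among the 17 that rose, but its AZD6738 libraries differed from each other, at 1.95 and 0.0331 FPKM.

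Secreted and NF-kB-dependent factors rose in 19 of 23 tested cases and fell in 2, with a median of 1.93, and the interaction was called higher for 13 and lower for 4. CCL5, a chemokine for T cells that both NF-kB and IRF factors induce, had 26.8 and 22.5 FPKM in AZD6738+IR libraries, against 0 and 0 FPKM in AZD6738 libraries, and its symbol has 2 entries. IL6, an inflammatory cytokine, had 5.21 and 5.11 FPKM in AZD6738+IR libraries, against 0.0219 and 0 FPKM in AZD6738 libraries. SERPINB2, an inhibitor of plasminogen activators, had 66.9 and 64.96 FPKM in AZD6738+IR libraries, against 3.703 and 4.23 FPKM in AZD6738 libraries, a rise of 16.6-fold. No library of one group reaches the range of the other for these genes. PLAUR, the urokinase receptor, had 106 and 88.98 FPKM in AZD6738+IR libraries and 9.19 and 10.1 FPKM in AZD6738 libraries, also apart. The differences were 4.68 for CCL5, 2.61 for IL6, 3.75 for SERPINB2 and 3.20 for PLAUR, with limma adjusted p from 6.91e-07 to 2.65e-06. CXCL1, which attracts neutrophils, had 155 and 138 FPKM in AZD6738+IR libraries, against 10.9 and 11.99 FPKM in AZD6738 libraries, a rise of 12.8-fold. Its IR libraries had 148 and 141 FPKM and its DMSO libraries 7.41 and 7.799 FPKM, so that radiation raised CXCL1 less with the inhibitor, with an interaction of -0.52 ± 0.10 (adjusted p = 0.012). IL6 and CCL5 had interactions of 2.10 and 4.27. The letters GGGNNTTTCC of the kappa-B site were found in 8 of 19 promoters of this list (42.1%), for 23 tested genes, and in 473 of 27305 promoters (1.73%). The windows of CXCL1 (chr4:73869284-73869353, plus strand) and IL6 (chr7:22727097-22727166, plus strand) are given with the match in capitals, from the same RefSeq table.
CXCL1: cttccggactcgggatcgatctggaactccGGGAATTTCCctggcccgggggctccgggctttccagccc
IL6: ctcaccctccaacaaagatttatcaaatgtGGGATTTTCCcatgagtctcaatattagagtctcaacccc

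Among genes of apoptosis and cell death 11 of 17 tested members were higher and none was called lower, with a median of 0.82. TNFSF10, the death ligand TRAIL, had 22.8 and 27.2 FPKM in AZD6738+IR libraries, against 0.602 and 0.533 FPKM in AZD6738 libraries, a rise of 44.05-fold (adjusted p = 1.43e-05). CASP10, an initiator caspase of death receptors, had 3.46 and 3.18 FPKM in AZD6738+IR libraries and 0.194 and 0.207 FPKM in AZD6738 libraries. The libraries of the groups stay apart for both genes. CFLAR, which restrains caspase-8, had 10.5 and 10.3 FPKM in AZD6738+IR libraries and 2.17 and 2.32 FPKM in AZD6738 libraries, again with the AZD6738+IR libraries higher. The differences were 1.85 for CASP10 and 1.81 for CFLAR. The interaction was 3.76 for TNFSF10, 1.03 for CFLAR and 0.95 for CASP10, each called, and it was called higher for 10 of the 17 genes and lower for 2.

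Targets of p53 rose in 22 of 30 tested cases and fell in 3, with a median of 0.76, and 7 reached a difference of 1. CDKN1A, the cell cycle inhibitor p21, had 495 and 427 FPKM in AZD6738+IR libraries, against 79.4 and 78.9 FPKM in AZD6738 libraries, a rise of 5.82-fold (difference 2.52 ± 0.074, adjusted p = 2.71e-06). PLK2, a kinase induced by p53, had 96.2 and 99.5 FPKM in AZD6738+IR libraries, against 21.9 and 22.6 FPKM in AZD6738 libraries. MDM2, the ubiquitin ligase that removes p53, had 126 and 129.5 FPKM in AZD6738+IR libraries, against 51.6 and 51.3 FPKM in AZD6738 libraries. The AZD6738+IR libraries were the higher ones for all 3, with differences of 2.09 for PLK2 and 1.29 for MDM2. SERTAD1, a regulator of transcription, had 29.4 and 28.4 FPKM in AZD6738+IR libraries and 9.42 and 9.03 FPKM in AZD6738 libraries. It rose without overlap, by 1.55 on the log2 scale. Between IR and DMSO libraries the differences were 2.46 for CDKN1A, 1.90 for PLK2 and 1.21 for MDM2. Their interactions of 0.064 ± 0.10 (adjusted p = 0.674), 0.19 ± 0.062 (adjusted p = 0.0604) and 0.082 ± 0.045 (adjusted p = 0.208) were not called, which does not show that they are 0, and other settings called that of PLK2 in 4 cases (adjusted p from 0.0291 to 0.0445) and that of MDM2 under quantile normalization (adjusted p = 0.0433). Over the 30 genes the interaction was called higher for 6 and lower for 5, against 14.3% and 23.6% of all named genes, so this list did not stand out in it. The median difference of the 30 genes between IR and DMSO libraries was 0.51. GDF15, a stress cytokine and p53 target, had 120.4 and 96.8 FPKM in AZD6738+IR libraries, against 68.7 and 61.9 FPKM in AZD6738 libraries. It also had 44.5 and 40.4 FPKM in IR libraries, against 47.4 and 38.6 FPKM in DMSO libraries. Its interaction of 0.73 was called (adjusted p = 0.036), but that call was lost on leaving out any 1 of 6 libraries. FUCA1, CYFIP2 and TRIAP1 were the members that fell, with differences from -0.40 to -0.14.

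Genes of the cell cycle fell. In the list of G2/M and mitosis 46 of 47 tested members were lower, 35 of them by at least 1, and none was higher, against 46.6% of named genes called lower, with a median of -1.38. CENPF, a protein of the kinetochore, had 2.85 and 3.18 FPKM in AZD6738+IR libraries, against 19.3 and 18.9 FPKM in AZD6738 libraries. TOP2A, the topoisomerase that untangles sister chromatids, had 3.63 and 3.802 FPKM in AZD6738+IR libraries, against 20.8 and 20.2 FPKM in AZD6738 libraries. BIRC5 (survivin), of the chromosomal passenger complex, had 1.48 and 1.53 FPKM in AZD6738+IR libraries and 10.3 and 9.98 FPKM in AZD6738 libraries. All 3 fell at least 5.52-fold with no overlap between the groups, and limma adjusted p was at most 2.66e-06. UBE2C, which serves the anaphase-promoting complex, had 4.54 and 4.47 FPKM in AZD6738+IR libraries and 22.1 and 22.7 FPKM in AZD6738 libraries. The proliferation marker MKI67 had 1.38 and 1.36 FPKM in AZD6738+IR libraries, against 6.24 and 6.29 FPKM in AZD6738 libraries. CCNB1, the mitotic cyclin B1, had 6.899 and 6.23 FPKM in AZD6738+IR libraries and 22.2 and 21.4 FPKM in AZD6738 libraries. Both AZD6738+IR libraries are the lower ones for each of these. LMNB1, the nuclear lamina protein lamin B1, had 1.31 and 1.22 FPKM in AZD6738+IR libraries and 7.18 and 7.41 FPKM in AZD6738 libraries, a fall of 5.77-fold. Falls were larger with the inhibitor than without it for 30 of the 47 genes by the interaction, which was called higher for 1, and the median difference between IR and DMSO libraries was -0.90. MKI67 had an interaction of -0.71 ± 0.098 (adjusted p = 0.00365). The letters TTTGAA of the cell cycle homology region were found in 19 of 42 promoters of this list (45.2%), for 47 tested genes, and in 3704 of 27305 promoters (13.6%).

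For DNA replication and the G1/S transition, 29 of 36 tested members were lower and 4 higher, with a median of -0.77. CCNA2 (cyclin A2) had 1.63 and 1.71 FPKM in AZD6738+IR libraries, against 9.42 and 9.005 FPKM in AZD6738 libraries. CDT1, which loads the replicative helicase, had 1.02 and 0.799 FPKM in AZD6738+IR libraries, against 5.31 and 5.34 FPKM in AZD6738 libraries. The helicase subunit MCM6 had 2.09 and 2.31 FPKM in AZD6738+IR libraries and 8.48 and 9.02 FPKM in AZD6738 libraries. Both AZD6738+IR libraries were below both AZD6738 libraries for all 3. RRM1, a subunit of ribonucleotide reductase, had 7.82 and 8.29 FPKM in AZD6738+IR libraries and 25.8 and 25.8 FPKM in AZD6738 libraries, also without overlap. The 4 genes had differences between -1.93 and -1.57 and limma adjusted p of at most 1.01e-05. The interaction was called lower for 17 of the 36 genes and higher for 1.

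Replication-dependent histone genes, which are transcribed in S phase, had the lowest median of all lists at -2.20, with 51 of 55 lower and 2 higher. HIST1H1B, a gene for the linker histone H1, had 4.03 and 3.57 FPKM in AZD6738+IR libraries, against 46.2 and 51.04 FPKM in AZD6738 libraries, a fall of 12.8-fold. HIST1H3G, a gene for histone H3, had 3.74 and 4.93 FPKM in AZD6738+IR libraries, against 48.5 and 55.8 FPKM in AZD6738 libraries. Neither gene shows overlap between groups, which was a condition for naming the largest falls. HIST1H3B, for the same histone, had 6.45 and 7.04 FPKM in AZD6738+IR libraries and 59.98 and 66.97 FPKM in AZD6738 libraries. HIST1H3I had 2.04 and 2.23 FPKM in AZD6738+IR libraries and 23.8 and 25.3 FPKM in AZD6738 libraries. The groups are as far apart in these, and the 4 genes had differences from -3.37 to -3.03 and limma adjusted p of at most 4.91e-06. In the libraries without inhibitor HIST1H1B had 17.7 and 20.4 FPKM after radiation and 49.5 and 47.5 FPKM in DMSO, and its interaction was -2.06 ± 0.12 (adjusted p = 0.000263). Over the list the interaction was called lower for 40 genes and higher for 2. The 2 genes that rose, HIST2H2AA3 and HIST2H2AA4, are copies of one another, with differences of 0.62 and 0.77. Histone genes of a family are near-identical, so the level of a single one is uncertain.

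The ATR pathway and DNA damage response had 19 of 29 tested members lower, 2 higher and a median of -0.49. ATR itself was not called, at 5.52 and 5.72 FPKM in AZD6738+IR libraries, against 5.86 and 6.098 FPKM in AZD6738 libraries (difference -0.077 ± 0.043, limma adjusted p = 0.157). AZD6738 blocks the kinase and not its transcript, so the level of ATR does not check the labels. The effector kinase CHEK1 had 1.63 and 1.63 FPKM in AZD6738+IR libraries, against 3.802 and 3.94 FPKM in AZD6738 libraries, a difference of -0.89 (adjusted p = 3.49e-05). RBBP8, which starts the resection of breaks, had 13.5 and 13.98 FPKM in AZD6738+IR libraries, against 31.2 and 31.2 FPKM in AZD6738 libraries. PRKDC, the kinase of end joining, had 16.9 and 16.5 FPKM in AZD6738+IR libraries and 37.7 and 36.5 FPKM in AZD6738 libraries. PARP1, which marks strand breaks with poly(ADP-ribose), had 45.6 and 47.1 FPKM in AZD6738+IR libraries and 94.3 and 96.6 FPKM in AZD6738 libraries. Each of the 3 fell with no overlap between groups, with differences of -1.13, -1.11 and -1.03 on the log2 scale. RBBP8 also had 27.7 and 28.5 FPKM in IR libraries, against 28.7 and 29.5 FPKM in DMSO libraries, and its interaction was -1.08 ± 0.051 (adjusted p = 0.000108). RAD9A and PALB2 were the members that rose, by 0.99 and 0.13 on the log2 scale. For ATR the IR libraries had 8.12 and 7.94 FPKM, against 5.89 and 6.23 FPKM in DMSO libraries, with an interaction of -0.43 ± 0.061 (adjusted p = 0.00384).

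Genes of the ATF4 and amino acid stress response fell in 25 of 26 tested cases, 22 of them by at least 1, with a median of -2.01. ASNS (chr7:97851677-97928441), asparagine synthetase, had 8.34 and 7.24 FPKM in AZD6738+IR libraries, against 99.2 and 97.9 FPKM in AZD6738 libraries, a fall of 12.6-fold (difference -3.50 ± 0.13, adjusted p = 4.86e-06). TRIB3, a pseudokinase that feeds back on ATF4, had 17.7 and 16.1 FPKM in AZD6738+IR libraries, against 165 and 153 FPKM in AZD6738 libraries, a fall of 9.42-fold. PSAT1, of serine synthesis, had 8.29 and 8.54 FPKM in AZD6738+IR libraries, against 81.1 and 80.1 FPKM in AZD6738 libraries. Both AZD6738+IR libraries lie far below both AZD6738 libraries for all 3. EIF4EBP1, which represses cap-dependent translation, had 20.8 and 19 FPKM in AZD6738+IR libraries and 242 and 222 FPKM in AZD6738 libraries, a fall of 11.6-fold. ATF3, a transcription factor of acute stress, was the only member that rose, with 32.99 and 35.5 FPKM in AZD6738+IR libraries, against 1.48 and 1.29 FPKM in AZD6738 libraries, a rise of 24.7-fold (adjusted p = 1.25e-06) and an interaction of 2.80 ± 0.12 (adjusted p = 6.55e-05). In IR libraries ASNS had 11.7 and 8.84 FPKM and in DMSO libraries 84.9 and 79.6 FPKM, a difference of -2.90 without the inhibitor. Its interaction of -0.61 was called (adjusted p = 0.0442) but the call was lost under 8 of 17 alternatives, 7 of which leave out 1 library. For TRIB3 and EIF4EBP1 the interactions of -0.99 (adjusted p = 0.0049) and -1.03 (adjusted p = 0.00523) were called, and over the list 16 genes were called lower and ATF3 higher. The letters TGATGNAA of the C/EBP-ATF response element were found in 3 of 21 promoters of the list (14.3%), for 26 tested genes, and in 870 of 27305 promoters (3.19%), and the windows of ASNS (chr7:97872439-97872506, minus strand) and ATF3 (chr1:212565186-212565253, plus strand) are given: the member with the largest fall and the only member that rose, both of which hold a match, in capitals.
ASNS: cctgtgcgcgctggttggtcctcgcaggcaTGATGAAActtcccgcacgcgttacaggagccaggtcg
ATF3: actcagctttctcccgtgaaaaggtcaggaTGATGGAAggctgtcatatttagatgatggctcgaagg

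**Figure D3:**
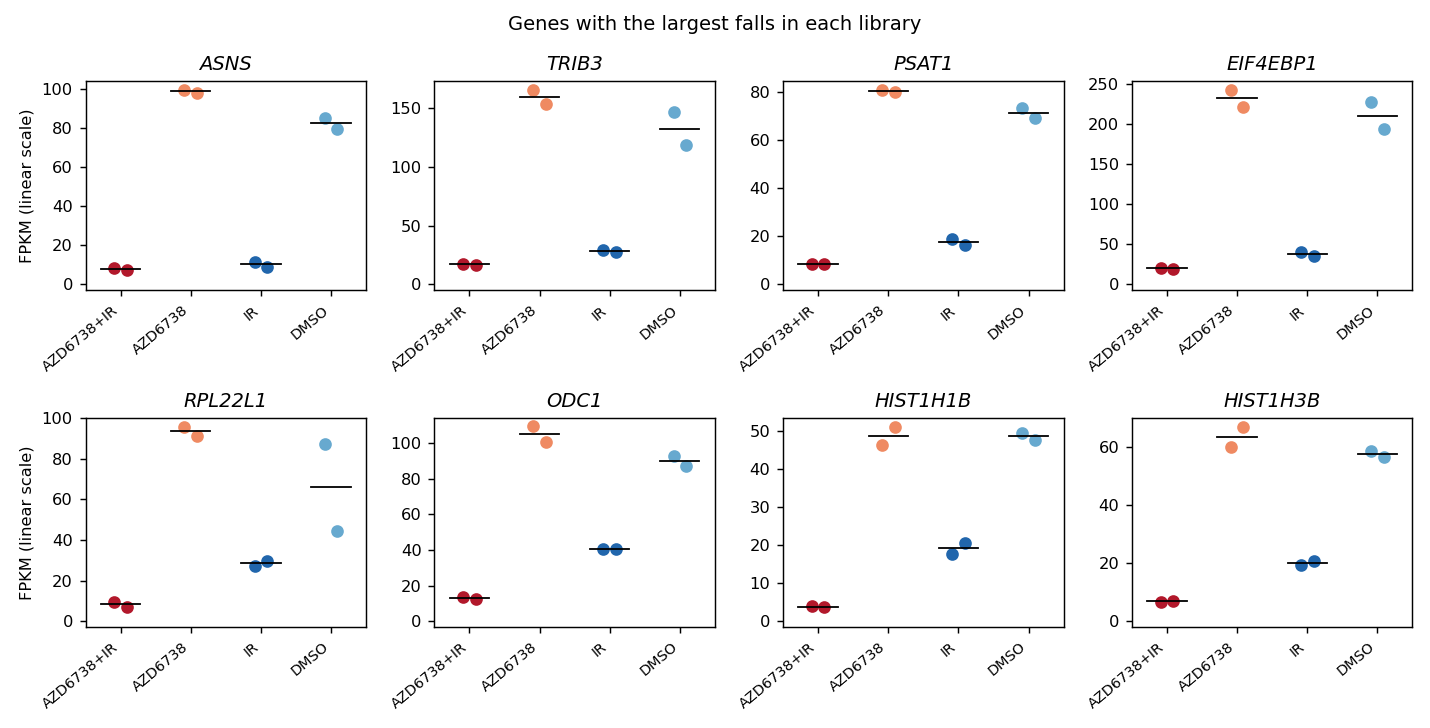
Levels in FPKM of 8 of the 10 genes with the largest falls, on linear axes from 0 that differ between panels. Points are libraries A and B, black bars are group means, and groups run AZD6738+IR, AZD6738, IR and DMSO from left to right; the AZD6738+IR libraries are the lowest in all 8 panels and the IR libraries come next.

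Genes of tRNA synthetases, which charge tRNAs with amino acids, fell in 17 of 18 tested cases with a median of -1.35. IARS, for isoleucine, had 35.2 and 38.3 FPKM in AZD6738+IR libraries, against 174 and 190.1 FPKM in AZD6738 libraries. EPRS, for glutamate and proline, had 51.7 and 54.98 FPKM in AZD6738+IR libraries, against 259 and 254 FPKM in AZD6738 libraries. GARS, for glycine, had 42.99 and 40.9 FPKM in AZD6738+IR libraries and 199 and 179 FPKM in AZD6738 libraries. Their AZD6738+IR libraries are all lower than their AZD6738 libraries. YARS, for tyrosine, had 23.9 and 23.9 FPKM in AZD6738+IR libraries and 102 and 96.6 FPKM in AZD6738 libraries. The 4 genes fell at least 4.15-fold with the groups well apart. WARS (chr14:100333790-100376327), the synthetase for tryptophan, which interferon is known to induce, was the only one that rose, with 205 and 243 FPKM in AZD6738+IR libraries, against 74.5 and 72.01 FPKM in AZD6738 libraries, a difference of 1.59 ± 0.089 (limma adjusted p = 2.08e-05). Without the inhibitor WARS fell, at 27.7 and 25.5 FPKM in IR libraries, against 65.7 and 62.1 FPKM in DMSO libraries, a difference of -1.23 (adjusted p = 0.000116). Its interaction of 2.83 ± 0.13 (adjusted p = 8.32e-05) was the only one of the list called higher, while 14 were called lower. The share of synthetase promoters with the letters TGATGNAA was not counted, and the promoter of HK1, a glycolysis gene that fell, holds them as well. The promoter window of IARS (chr9:92293698-92293740, minus strand) holds these letters on the opposite strand, shown as TTGCATCA in capitals.
IARS: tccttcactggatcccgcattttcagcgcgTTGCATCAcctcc

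**Figure D4:**
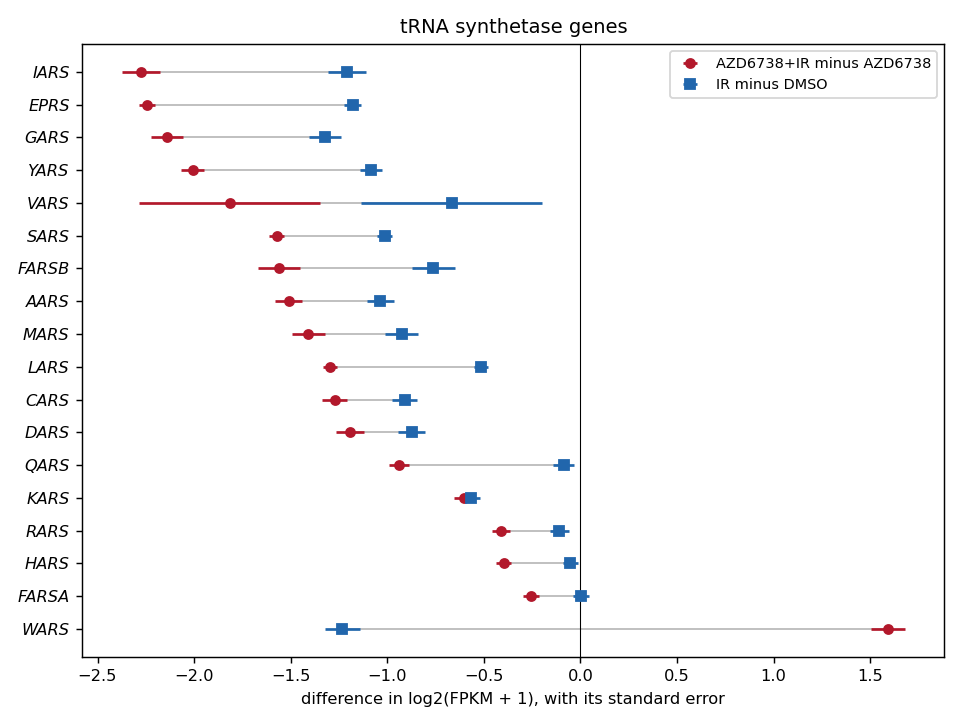
Radiation differences of 18 tRNA synthetase genes in log2(FPKM + 1) with standard errors. Red circles are AZD6738+IR minus AZD6738 and blue squares are IR minus DMSO; WARS lies at 1.59 with the inhibitor and at -1.23 without it, and the other 17 red circles lie below 0.

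Other genes of protein synthesis fell too. Ribosomal protein genes were lower in 52 of 56 cases and higher in none, with a median of -0.84, and the interaction was called lower for 46. RPL3, of the large subunit, had 226 and 217 FPKM in AZD6738+IR libraries, against 927 and 936 FPKM in AZD6738 libraries. RPL5, which also binds MDM2, had 353 and 326 FPKM in AZD6738+IR libraries and 1094 and 1107 FPKM in AZD6738 libraries. RPS3A, of the small subunit, had 44.8 and 44.6 FPKM in AZD6738+IR libraries and 119.9 and 127 FPKM in AZD6738 libraries. The 3 genes fell between 2.76-fold and 4.21-fold with no overlap of libraries. RPL22L1, a paralog of the ribosomal protein RPL22, had 9.41 and 6.97 FPKM in AZD6738+IR libraries, against 95.9 and 91.4 FPKM in AZD6738 libraries, one of the largest falls in the table. Its interaction was -2.27 ± 0.44 (adjusted p = 0.0113), though its DMSO libraries differed from each other at 87.6 and 44.4 FPKM. Of 19 genes of ribosome biogenesis 18 were lower and none was higher, with a median of -0.95. NPM1, a chaperone of the nucleolus, had 377 and 420.1 FPKM in AZD6738+IR libraries, against 1468 and 1374 FPKM in AZD6738 libraries. WDR12, of the complex that matures the large subunit, had 9.51 and 10.1 FPKM in AZD6738+IR libraries and 38.8 and 38.5 FPKM in AZD6738 libraries. DKC1, which modifies ribosomal RNA, had 13.6 and 14.1 FPKM in AZD6738+IR libraries and 35.5 and 34.1 FPKM in AZD6738 libraries. All 3 have AZD6738+IR libraries below AZD6738 libraries. ODC1, which makes putrescine, had 13.4 and 12.6 FPKM in AZD6738+IR libraries, against 109.5 and 101 FPKM in AZD6738 libraries, a fall of 8.09-fold (adjusted p = 9.26e-07). Without the inhibitor ODC1 had 40.7 and 40.3 FPKM in IR libraries, against 92.8 and 87.5 FPKM in DMSO libraries, and its interaction was -1.79 ± 0.081 (adjusted p = 9e-05).

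Genes of the respiratory chain were lower in 53 of 66 tested cases and higher in 3, with a median of -0.48, and 5 fell by 1 or more. CYC1, cytochrome c1 of complex III, had 119.7 and 97.7 FPKM in AZD6738+IR libraries, against 319 and 317 FPKM in AZD6738 libraries. SDHD, an anchor subunit of complex II, had 24.7 and 14.4 FPKM in AZD6738+IR libraries and 41.8 and 42.4 FPKM in AZD6738 libraries. The groups stay apart for each, although the AZD6738+IR libraries of SDHD differ from each other. The proteasome list had 24 of 32 lower and 4 higher with a median of -0.36, and no member reached a difference of 1. This list leaves out the proteasome-related genes PSMB8, PSME1 and PSME2, which were counted under antigen presentation. Each of them was called higher, by more than 1 on the log2 scale. PSMD14, a deubiquitinase of the proteasome lid, had 32.2 and 30.7 FPKM in AZD6738+IR libraries, against 59.6 and 58.5 FPKM in AZD6738 libraries. PSMB1, of the catalytic core particle, had 76.6 and 90.8 FPKM in AZD6738+IR libraries and 144 and 146 FPKM in AZD6738 libraries. Both fell with the groups apart, and the members that rose were PSMA2, PSMA4, PSMA5 and PSMA6, subunits of the outer rings of the core, with differences from 0.18 to 0.34. Under quantile normalization 15 proteasome genes were lower in place of 24.

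Epithelial and squamous genes mostly rose. All 17 tested genes of squamous differentiation were higher, with a median of 2.04. LCN2, an iron-binding antimicrobial protein, had 122 and 109.9 FPKM in AZD6738+IR libraries, against 2.62 and 2.65 FPKM in AZD6738 libraries, a rise of 44.03-fold. S100A7 (psoriasin), an antimicrobial protein of keratinocytes, had 156 and 152 FPKM in AZD6738+IR libraries, against 3.41 and 5.52 FPKM in AZD6738 libraries. PI3 (elafin), an elastase inhibitor, had 1203 and 903 FPKM in AZD6738+IR libraries and 84.6 and 105 FPKM in AZD6738 libraries. The AZD6738+IR libraries stand above the AZD6738 libraries for all 3, with limma adjusted p of at most 1.45e-05. KLK7, a protease of the cornified layer, had 175 and 159 FPKM in AZD6738+IR libraries and 18.01 and 21.3 FPKM in AZD6738 libraries. Between IR and DMSO libraries the median of the list was 2.30, and the interaction was called for only 3 of the 17 genes, higher for LCN2 (1.54, adjusted p = 0.00087) and lower for IVL and A2ML1. S100A7 had 185 and 142 FPKM in IR libraries and 2.25 and 2.4 FPKM in DMSO libraries, with an interaction of -0.77 ± 0.29 that was not called (adjusted p = 0.0879) but was called at -1.05 without AZD6738 A (adjusted p = 0.0235). In IVL, the envelope protein involucrin, AZD6738+IR libraries had 11.7 and 10.1 FPKM and AZD6738 libraries 1.28 and 1.55 FPKM, and its interaction was -0.56 ± 0.14 (adjusted p = 0.0249), a call that was lost on leaving out any 1 of 5 libraries (adjusted p from 0.0543 to 0.0738). Of 17 genes of basal and luminal epithelium 12 were higher and 5 lower, with a median of 0.68. TP63 fell the most of this list, to 5.27 and 4.69 FPKM in AZD6738+IR libraries, against 11.6 and 11.7 FPKM in AZD6738 libraries. Its difference was -1.08 (limma adjusted p = 2.38e-05). The tight junction gene CLDN4 had 92.3 and 78.8 FPKM in AZD6738+IR libraries, against 6.69 and 7.35 FPKM in AZD6738 libraries. The luminal keratin KRT8 had 336 and 310.2 FPKM in AZD6738+IR libraries and 41.4 and 45.1 FPKM in AZD6738 libraries. The basal keratin KRT17 had 3359.7 and 3112 FPKM in AZD6738+IR libraries and 1384 and 1368 FPKM in AZD6738 libraries. These 3 rose without overlap between groups, between 2.35-fold and 12.2-fold.

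Mesenchymal and matrix genes split, with 8 of 14 higher and 5 lower and a median of 0.27, which was -0.61 when only genes with a mean of at least 5 FPKM were kept. TAGLN (transgelin), which binds actin, had 17.7 and 16.9 FPKM in AZD6738+IR libraries, against 1.37 and 1.39 FPKM in AZD6738 libraries. CYR61, a matrix protein induced by YAP, had 10.6 and 11.2 FPKM in AZD6738+IR libraries and 1.09 and 1.07 FPKM in AZD6738 libraries. FN1 (fibronectin) had 11.98 and 11.7 FPKM in AZD6738+IR libraries and 2.06 and 2.09 FPKM in AZD6738 libraries. Each of the 3 is higher in both AZD6738+IR libraries. FN1 also had 2.82 and 2.68 FPKM in IR libraries, against 1.97 and 1.83 FPKM in DMSO libraries, and an interaction of 1.69 ± 0.062 (adjusted p = 4.28e-05). Of the genes listed for blood and endothelial cells only CSF1R, CD68 and CD14 were matched, and all 3 were called higher. CSF1R, the receptor of a macrophage growth factor, had 3.22 and 2.66 FPKM in AZD6738+IR libraries, against 0.722 and 0.802 FPKM in AZD6738 libraries, with a negative interaction of -0.56 (adjusted p = 0.0116). CD68, a lysosomal protein abundant in macrophages, had 12.1 and 10.6 FPKM in AZD6738+IR libraries and 7.41 and 8.46 FPKM in AZD6738 libraries. CD14, a receptor for bacterial lipopolysaccharide, had 14.6 and 13.9 FPKM in AZD6738+IR libraries and 12.7 and 13.2 FPKM in AZD6738 libraries, a difference of 0.13 whose call was lost under 5 of 19 alternatives, 4 of which leave out 1 library.

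Metabolic and stress lists moved in both directions. Of 24 lysosome and autophagy genes 16 were higher and 2 lower, with a median of 0.32. CTSS, the protease cathepsin S of antigen processing, had 5.22 and 6.13 FPKM in AZD6738+IR libraries, against 0.09302 and 0.1897 FPKM in AZD6738 libraries. GABARAPL1, which builds autophagosomes, had 16.9 and 16.3 FPKM in AZD6738+IR libraries and 6.06 and 5.98 FPKM in AZD6738 libraries. CTSH, the protease cathepsin H, fell to 12.9 and 12.7 FPKM in AZD6738+IR libraries, against 24.8 and 26.6 FPKM in AZD6738 libraries. The groups are apart in all 3. Of 24 genes of glycolysis and hypoxia 7 were higher (29.2%) and 10 lower (41.7%), close to the 27.4% and 46.6% of all named genes. Their median of -0.029 turned positive under each of 3 other scalings of the libraries. ADM, the peptide adrenomedullin, had 24.5 and 26.6 FPKM in AZD6738+IR libraries, against 2.73 and 3.21 FPKM in AZD6738 libraries, a rise of 8.599-fold. LDHB, a lactate dehydrogenase, had 206 and 230.0 FPKM in AZD6738+IR libraries and 498 and 501 FPKM in AZD6738 libraries. HK1, the hexokinase of the first step, had 42.8 and 44.1 FPKM in AZD6738+IR libraries and 94.6 and 95.9 FPKM in AZD6738 libraries. ADM rose and LDHB and HK1 fell, with no overlap between groups. GAPDH, often taken as a reference gene, was not called, at 3088 and 2687 FPKM in AZD6738+IR libraries, against 3117 and 3271 FPKM in AZD6738 libraries (difference -0.15 ± 0.071, adjusted p = 0.108), although it was called lower under quantile normalization, at -0.36, and without AZD6738+IR A, at -0.25. ACTB, another such gene, rose, at 1389 and 1197 FPKM in AZD6738+IR libraries, against 975 and 1003 FPKM in AZD6738 libraries (adjusted p = 0.00389).

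Cholesterol genes were higher in 8 of 16 cases and lower in 4, with a median of 0.28. STARD4, a sterol carrier, had 10.2 and 10.2 FPKM in AZD6738+IR libraries, against 3.43 and 5.37 FPKM in AZD6738 libraries. MVK (mevalonate kinase), of sterol synthesis, had 8.95 and 8.95 FPKM in AZD6738+IR libraries and 17.1 and 18.01 FPKM in AZD6738 libraries. STARD4 rose and MVK fell, and in neither do the groups overlap. Genes of the unfolded protein response were higher in 5 of 17 cases (29.4%) and lower in 7 (41.2%), again close to the 27.4% and 46.6% of all named genes. Their median of -0.026 also turned positive under the 3 other scalings. PPP1R15A, which reverses the phosphorylation of eIF2alpha, had 41.2 and 38.9 FPKM in AZD6738+IR libraries, against 17.9 and 16.95 FPKM in AZD6738 libraries, with an interaction of 1.20 ± 0.096 (adjusted p = 0.000686). The chaperone CANX (calnexin) had 195 and 193 FPKM in AZD6738+IR libraries, against 324 and 323 FPKM in AZD6738 libraries. XBP1, a transcription factor of this response, had 55.8 and 49.9 FPKM in AZD6738+IR libraries and 80.05 and 75.2 FPKM in AZD6738 libraries. PPP1R15A rose and the other 2 fell, each with the groups apart. Immediate early genes and feedback regulators of MAP kinases were higher in 7 of 14 cases and lower in 4. JUN, a subunit of the transcription factor AP-1, had 24.7 and 23.4 FPKM in AZD6738+IR libraries, against 8.204 and 8.34 FPKM in AZD6738 libraries. KLF6, a zinc finger factor, had 17.9 and 26.4 FPKM in AZD6738+IR libraries and 6.302 and 5.99 FPKM in AZD6738 libraries. Both genes are higher in both AZD6738+IR libraries. JUND, a relative of JUN, had 1.899 and 8.397 FPKM in AZD6738+IR libraries, against 17.1 and 16.5 FPKM in AZD6738 libraries, so that its AZD6738+IR libraries differ from each other, and its call (difference -1.77 ± 0.53, adjusted p = 0.0253) was lost without either AZD6738 library and when only the 4 libraries compared were fitted.

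Across all named genes the radiation difference with the inhibitor followed the one without it, but was wider. The comparisons share no library. Of the named genes 5554, or 64.1%, were called between IR and DMSO libraries, and 4610 genes were called in both comparisons with the same sign, which is 71.9% of the calls in AZD6738+IR against AZD6738 and 83% of those in IR against DMSO. Across the 8666 genes, which share the libraries of each group and are not independent replicates, Pearson's r was 0.786 and Spearman's rho 0.802. The standard deviation of the differences was 0.85 with the inhibitor and 0.55 without it. Among the 581 genes that rose by at least 1 with the inhibitor the median was 1.62, and the median of the same genes between IR and DMSO libraries was 0.87. The 696 genes that fell by at least 1 had medians of -1.27 and -0.81. Both sets were chosen by the first of these differences, so the smaller second value is partly given by the choice. The interaction was called for 3287 named genes, or 37.9%, with 1243 (14.3%) higher and 2044 (23.6%) lower.

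**Figure D5:**
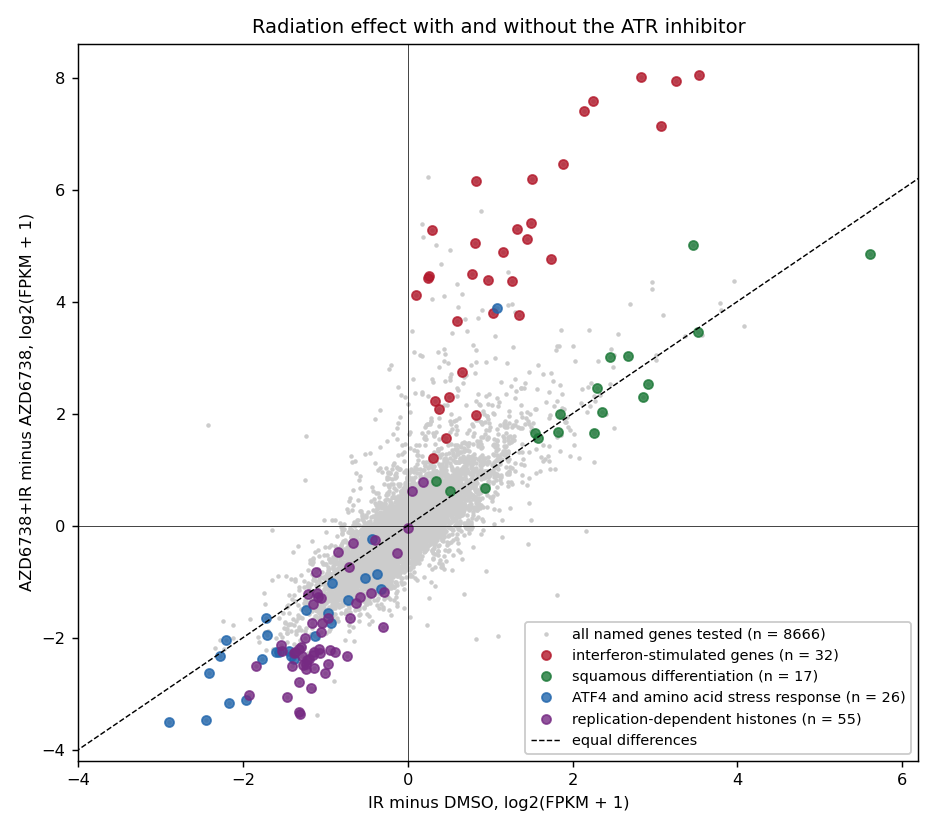
Radiation differences of 8666 named genes with and without the inhibitor. The vertical axis is AZD6738+IR minus AZD6738 and the horizontal axis is IR minus DMSO, both in log2(FPKM + 1), and the dashed line marks equal differences; interferon-stimulated genes lie above it with medians of 4.62 and 1.01, squamous genes near it with medians of 2.04 and 2.30, and histone genes below it with medians of -2.20 and -1.12.

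In 234 named genes radiation was called in opposite directions with and without the inhibitor. The interaction was called in all of them, which adds little, since opposite signs make it larger than either difference. Together with WARS, NT5E, TMEM140 and FYB were the 4 genes that averaged at least 5 FPKM in some group and differed by at least 1 with the inhibitor and by at least 0.5 the other way without it, a choice made after their values were seen. NT5E, the surface enzyme CD73 that makes adenosine, had 52.7 and 53.9 FPKM in AZD6738+IR libraries, against 24.7 and 22.6 FPKM in AZD6738 libraries, and 13.1 and 12.3 FPKM in IR libraries, against 21.1 and 20.9 FPKM in DMSO libraries. Its AZD6738+IR libraries are the highest of the series and its IR libraries the lowest, with an interaction of 1.82 ± 0.075 (limma adjusted p = 6.02e-05). TMEM140 had 15.2 and 14.8 FPKM in AZD6738+IR libraries, against 5.49 and 5.99 FPKM in AZD6738 libraries, and 3.36 and 3.72 FPKM in IR libraries, against 6.51 and 6.18 FPKM in DMSO libraries, with an interaction of 1.94 (adjusted p = 7.73e-05). FYB, an adaptor protein of blood cells, had 9.39 and 9.11 FPKM in AZD6738+IR libraries, against 3.09 and 3.36 FPKM in AZD6738 libraries, and 2.51 and 2.34 FPKM in IR libraries, against 3.84 and 4.02 FPKM in DMSO libraries, with an interaction of 1.80 (adjusted p = 5.77e-05). For both genes the AZD6738+IR libraries are again the highest and the IR libraries the lowest.

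Among named genes called in the interaction with at least 5 FPKM in some group, the 6 lowest values were those of RPL22L1, the histone genes HIST1H1B and HIST1H3G, ODC1, MALAT1 and TRAPPC2. MALAT1, a nuclear long noncoding RNA, had 178 and 190.3 FPKM in AZD6738+IR libraries, against 588 and 676 FPKM in AZD6738 libraries, and 548 and 677 FPKM in IR libraries, against 569 and 471 FPKM in DMSO libraries. Its AZD6738+IR libraries stand below the other 6, which overlap among themselves, and the interaction was -2.01 ± 0.20 (adjusted p = 0.00123). TRAPPC2, of a complex that tethers vesicles, had 3.09 and 2.52 FPKM in AZD6738+IR libraries, against 5.37 and 5.98 FPKM in AZD6738 libraries, and 3.78 and 3.86 FPKM in IR libraries, against 1.498 and 1.5 FPKM in DMSO libraries. Its AZD6738 libraries are the highest of the series and its DMSO libraries the lowest, with an interaction of -1.76 ± 0.12 (adjusted p = 0.000362).

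The differences varied little with locus length and more with level, which also entered the filter for testing. The median difference was -0.12, -0.16, -0.20 and -0.13 in 4 equal groups of named genes from the shortest to the longest locus. By level in AZD6738 libraries the median was 0.11, -0.14, -0.25 and -0.39 from the lowest to the highest of 4 equal groups, where the level in AZD6738 libraries is also a part of the difference. Genes below 1 FPKM in AZD6738 libraries were tested only where other groups raised the mean to 1, which can favour rises in the lowest group. Over chromosomes the median ran from -0.33 on chromosome 13 to -0.026 on chromosome 19. The 27 small nuclear RNA genes tested had a median of 0.25, against -0.15 between IR and DMSO libraries. Of them 44.4% were called higher and 3.7% lower, against 27.4% and 46.6% of all named genes. How reads were divided between similar copies of these genes is not given, so they may not be separate measurements.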

How the data were processed

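RNA of MCF10A cells was sequenced after rRNA depletion as 8 stranded libraries with 75 bp paired reads. The authors deposited 1 table of FPKM values with a p-value column, made with FastQC, HISAT2 2.0.4 and StringTie 1.3.4d on hg38, per the submitters' processing notes. The values were read as FPKM, although their range would also fit TPM, and they give no read depth. The authors' deposited p-value equals an F test over the 4 groups in 100% of loci (tolerance 1e-06) and was not used.

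Of several entries for 1 symbol (217 symbols) only that with the highest mean stayed, leaving 14645 of 14944 loci. Values were tested as log2(FPKM + 1) with limma 3.58.1 (R 4.3.3, with a mean trend) in 1 model of 4 groups without a block (4 residual and 1.79 prior degrees of freedom), for loci that averaged 1 FPKM or more. Adjusted p is Benjamini-Hochberg over all loci, the threshold 0.05, and ± after a difference is its standard error. The fit was tested on simulated data. Columns were matched to groups by name and carry letters A and B. Deviations from group means correlated by -0.051 to 0.158 between same-lettered libraries of different groups, so the letters were not taken as pairs.

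Genes are named by rule: the 10 largest rises and falls among called genes whose groups do not overlap and whose higher group averages 5 FPKM or more, up to 4 called members of each list, a list of sentinel genes, and the 6 highest and 6 lowest called interactions. Other genes, such as members that went against their list, were chosen after their values were seen. The comparison and the gene lists were chosen with earlier results of these data known. Coordinates and promoters are RefSeq's for GRCh38.p14, and 9349 named genes matched. A comparison of promoters between all called and uncalled genes is void, because only 78% of tested named genes have a promoter in the table, under the limit of 80%. Alternatives tried were pseudocounts, filters, scalings, a fit without trend, the 4 libraries alone, summed entries, a stricter call, a replicate block and leaving out each library. A few genes that the rule names are not reported here.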

Additional observations from a re-analysis of the deposited data

Results flagged for a closer look

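These results stand out because the radiation difference with the inhibitor (AZD6738+IR minus AZD6738) differed from the radiation difference without it (IR minus DMSO) by the interaction term of the limma fit, at an adjusted p under 0.05. Each value is that interaction in log2(FPKM + 1), and it was called for 37.9% of named genes, so standing out in this way is common in these data.

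Among interferons it was 5.98 for IFNL1, 5.21 for IFNL3 and 3.42 for IFNB1. Interferon-stimulated genes had 5.34 for IFIT3, 5.32 for RSAD2, 5.27 for OASL, 5.18 for IFIT1, 4.68 for ISG15, 4.57 for MX1 and 3.90 for CXCL10. Sensors and their adaptors had 3.70 for IFIH1 and 1.19 for TMEM173, and the checkpoint ligand CD274 had 2.71. Among secreted factors the interaction was 4.27 for CCL5, 2.10 for IL6 and 0.73 for GDF15, while CXCL1 was lower at -0.52. In all of these but CXCL1 the difference was higher with the inhibitor than without it.

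Negative interactions were found in cell cycle genes, with -0.71 for MKI67, -0.58 for LMNB1, -0.54 for CCNB1, -2.06 for HIST1H1B and -2.003 for HIST1H3G. The stress genes ASNS and TRIB3 had -0.61 and -0.99, ODC1 had -1.79, RPL22L1 had -2.27 and the envelope gene IVL had -0.56. The interaction calls of ASNS, GDF15 and IVL were lost under 8, 6 and 5 of 17 alternatives. MALAT1 had -2.01, TRAPPC2 had -1.76 and ATR had -0.43.

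Of the 234 named genes called in opposite directions with and without the inhibitor, WARS, TMEM140, NT5E and FYB passed a limit chosen after seeing the values, with at least 5 FPKM in some group, a difference of at least 1 with the inhibitor and of at least 0.5 the other way without it. They were higher with the inhibitor and lower without it, and the interaction was 2.83 for WARS, 1.94 for TMEM140, 1.82 for NT5E and 1.80 for FYB.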

How the results depend on the processing

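With a mean of at least 5 FPKM fewer genes were tested, and 1753 loci were called higher and 3706 lower, among named genes 1290 and 2640, and in the interaction 891 loci and 682 named genes higher. Then 16 replication, 22 G2/M and 9 DNA damage response genes were lower, and 12 NF-kB, 3 mesenchymal and 6 apoptosis genes were higher, with a mesenchymal median of -0.61. A required difference of 1 left 967 loci higher and 1036 lower, among named genes 581 and 696. Quantile normalization left 15 proteasome genes lower. The median of the unfolded protein response became 0.059 on median centring, 0.15 on quantile normalization, 0.075 on rescaling without the 4 most abundant loci and between -0.078 and 0.040 on leaving out 1 library, and that of glycolysis 0.056, 0.069 and 0.063 on the same scalings. These scalings moved the median of all loci by 0.065 to 0.085, and with them 2741 to 2788 named genes were higher and 3542 to 3602 lower. With the letters as a replicate block, which the labels do not tie to shared cultures, 2377 named genes were higher and 4025 lower, and 1199 and 2002 in the interaction. Leaving out 1 library at a time gave 3060 to 3457 loci higher and 5176 to 5700 lower. For the genes chosen by the naming rule, under these alternatives other than the required difference of 1, 2383 values kept their side of the threshold and direction, 11 lost it, 2 gained it and 0 reversed, and in the interaction 2060 kept it, 52 lost it, 30 gained it and 0 reversed. On leaving out 1 library the number of interaction calls changed by a larger share than that of AZD6738+IR against AZD6738 calls. Most of these fits called fewer genes in the interaction, so its counts depend more on single libraries. The causes were not tested. With 2 libraries a group and an unknown depth, small differences of low genes cannot be weighed further.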

Other observations

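Loci without a gene symbol, which the authors' assembly numbered, were tested in the same fit. Of 4143 such loci 1097 were higher and 1758 lower in AZD6738+IR than in AZD6738 libraries, with a median difference of -0.15. Of all 12809 loci tested, which include these, 27.1% were higher and 45.2% lower, also with a median of -0.15. Loci without a symbol thus resembled the table at large. MSTRG.2379 had 1009 and 1028 FPKM in AZD6738+IR libraries, against 1.88 and 1.89 FPKM in AZD6738 libraries, a difference of 8.47 that no named gene reached. Its IR libraries had 8.84 and 10.3 FPKM, against 1.05 and 1.36 FPKM in DMSO libraries, and its interaction was 6.21. MSTRG.17182 rose by 5.83, with an interaction of 3.65. MSTRG.17979 was listed at 0 in both AZD6738+IR libraries, against 100.3 and 99.7 FPKM in AZD6738 libraries, while IR libraries had 99.2 and 90.4 FPKM and DMSO libraries 65.2 and 104 FPKM, and its interaction was -6.86. MSTRG.987 had 1.88 and 1.61 FPKM in AZD6738+IR libraries, against 81.8 and 86.0 FPKM in AZD6738 libraries, and fell as well without the inhibitor, to 3.19 and 2.32 FPKM in IR libraries, against 83.6 and 83.7 FPKM in DMSO libraries. The files pair none of these numbers with a gene, and the 4 were the loci with the largest rises and falls.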
